A study of Mus musculus with 12 samples.

Results

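The 7 genes Erich5, Zxda, Prf1, Fam126b, Rhbdl2, Serpina4-ps1 and 2900060B14Rik were selected because their signal was far higher in hepatocytes isolated from Cre-negative mice than in hepatocytes isolated from Cre-positive mice. They are 7 of 19057 genes that had a probe with a single gene symbol. All 12 of their probes were taken, of which 9 passed the filter on low signal, and these 9 lay above the filter's floor on all 12 arrays. Since the difference between the hepatocyte groups chose the genes, it is described with no p-value for these genes, and so are the differences between hepatocytes and liver, which use the same hepatocyte arrays. Counts by a call rule in these comparisons are given only beside the share of all probes, and nothing is read from them. Only the difference between the liver groups shares no arrays with the stated rule of choice, and it carries a test.

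RNA of male, adult C57BL6/J mice was hybridised to 12 mouse bead arrays (Illumina), with 4 groups of 3 arrays. Hepatocytes freshly isolated from an IkkβDhep mouse (Dhep, Cre-positive) were set against hepatocytes freshly isolated from an IkkβF/F mouse (FF, Cre-negative), and fresh liver of an IkkβDhep mouse against fresh liver of an IkkβF/F mouse. In IkkβDhep mice Ikkβ is deleted, and the IkkβF/F mice carry the same gene intact with the sites that Cre uses. Which promoter drives Cre is not stated in the sources used here. Mice were 4 to 6 weeks old by the sample labels, but 6 to 8 weeks old by the design text. That text counts 4 mice and 4 RNA samples, so each group is treated here as 1 RNA sample hybridised on 3 arrays. A p-value therefore measures the spread between arrays and compares RNA samples, not genotypes.

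Ikkβ is the kinase that marks the inhibitors of NF-κB for destruction, which frees this transcription factor to enter the nucleus and switch on genes of inflammation and cell survival. Hepatocytes are the main cell type of liver, and isolating them by digestion of the tissue is itself known to switch on stress genes. The selected genes share no known pathway. Prf1 encodes perforin, the pore-forming protein that T cells and natural killer cells release onto target cells. Rhbdl2 encodes a rhomboid, a protease that cuts other proteins within the membrane. Fam126b is a paralogue of Fam126a (hyccin), a component of the complex that holds phosphatidylinositol 4-kinase alpha at the plasma membrane. Erich5 encodes a glutamate-rich protein. Zxda is annotated by RefSeq as a transcribed pseudogene in mouse, and human ZXDA is a zinc finger protein that acts with the transactivator CIITA on genes of MHC class II. Serpina4-ps1 is a transcribed pseudogene of the serpin family, and human SERPINA4 encodes kallistatin, an inhibitor of tissue kallikrein. 2900060B14Rik is a long noncoding RNA.

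Promoter sequence was available for 4 of the 7 genes, in RefSeq's annotation of GRCm38.p6. The 250 bases before the start are shown for the 4 genes, at the first listed start where there are 2, so that the sequences upstream of genes with a shared pattern can be compared. Capitals mark a motif match on either strand. The Prf1 sequence is chr10:61297586-61297835 on the plus strand, Rhbdl2 is chr4:123787625-123787874 on the plus strand, Fam126b is chr1:58586334-58586583 on the minus strand and 2900060B14Rik is chr1:118459266-118459515 on the minus strand.
Prf1: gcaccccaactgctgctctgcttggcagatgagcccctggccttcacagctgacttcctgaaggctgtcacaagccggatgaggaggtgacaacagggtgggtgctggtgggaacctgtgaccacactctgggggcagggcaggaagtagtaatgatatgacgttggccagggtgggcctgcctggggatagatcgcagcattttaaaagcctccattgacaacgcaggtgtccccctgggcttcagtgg
Rhbdl2: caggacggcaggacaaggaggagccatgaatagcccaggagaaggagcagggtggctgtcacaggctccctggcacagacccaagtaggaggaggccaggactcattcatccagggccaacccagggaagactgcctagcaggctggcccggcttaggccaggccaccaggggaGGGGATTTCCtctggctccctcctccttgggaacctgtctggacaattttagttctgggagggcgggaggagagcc
Fam126b: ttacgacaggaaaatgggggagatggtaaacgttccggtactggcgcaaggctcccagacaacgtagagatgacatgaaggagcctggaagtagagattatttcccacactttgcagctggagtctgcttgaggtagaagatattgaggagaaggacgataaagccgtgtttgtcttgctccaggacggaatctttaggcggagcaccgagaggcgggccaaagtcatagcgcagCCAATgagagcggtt
2900060B14Rik: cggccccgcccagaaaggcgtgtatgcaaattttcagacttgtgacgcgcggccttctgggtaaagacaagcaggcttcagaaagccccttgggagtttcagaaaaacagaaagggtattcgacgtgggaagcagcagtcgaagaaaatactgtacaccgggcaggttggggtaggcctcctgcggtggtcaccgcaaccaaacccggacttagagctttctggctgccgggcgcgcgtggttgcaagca

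Motifs were searched on both strands. The TATA box was searched as TATAAA, and the box bound by factor NF-Y as CCAAT. The E-box was taken as CACGTG, the STAT site as TTCNNNGAA, and the site of factor AP-1 as TGANTCA. The core of the interferon-stimulated response element, a first κB-like pattern and the κB consensus were searched as well. The first κB-like pattern matched none of the promoters of the 4 genes, against 17.6% of all 32851 promoters of the same length. The κB consensus was added after these sequences had been read, when a match upstream of Rhbdl2 was already in view, so that match is not the outcome of a search. It begins 76 bases before the Rhbdl2 start, and 7.25% of all promoters hold the consensus. CCAAT begins 15 bases before the first Fam126b start, and 33.8% of all promoters hold it. The second starts of both genes also hold CCAAT, 194 bases before the start in Fam126b, where it is the same genomic copy, and 9 bases before it in Rhbdl2. The Prf1 and 2900060B14Rik windows hold none of the letters searched. The remaining motifs, which matched in none of these windows, occur in 12.4% (TATA box), 6.02% (E-box), 2.98% (interferon element), 7.02% (STAT site) and 6.75% (AP-1 site) of all promoters. The G and C content of the 4 windows shown was 58.8% for Prf1, 62.4% for Rhbdl2, 51.6% for Fam126b and 56.8% for 2900060B14Rik, against a median of 52.4% over all promoters.

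Values are the raw bead intensity of each array as deposited, in linear units, and the log2 signal after background correction and quantile normalization, as mean ± SD over 3 arrays. Levels of different probes are not set against each other, since probes differ in how strongly they bind. The median raw intensity of an array lay between 41.0 and 53.8. The upper quartile was 75.5 to 85.7 on the FF hepatocyte arrays and 94.7 to 119 on the other arrays, and its part in the members' values was not tested beyond the alternative scalings given in the closing section. Pearson's r across probes was 0.997 to 0.998 within groups and 0.981 to 0.993 between groups. Of 3 Ikbkb probes, which measure the targeted gene, 1 passed the filter, with 7.66 ± 0.03 in Dhep hepatocytes and 7.35 ± 0.06 in FF hepatocytes, and 7.47 ± 0.10 in Dhep liver and 7.62 ± 0.07 in FF liver (log2, SD, n = 3). Whether this probe lies in the deleted part of the gene is not known here, so it does not check the genotype labels. Of hepatocyte markers, 8 of 8 were measured and none was called between the hepatocyte groups or between the liver groups, against 2.45% and 0.595% of all probes. By limma, 3 and 2 had an unadjusted p under 0.05, and the share of all probes at that threshold was not counted. Between the hepatocyte groups Apob (0.66, log2) and Cps1 (0.47) were higher in Dhep by less than the fold threshold for calls. Alb (-0.25, limma adjusted p = 0.0686) and Ttr (-0.11, limma adjusted p = 0.212) did not pass even without that threshold.

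Perforin's probe ILMN_2960700 (Prf1, chromosome 10) read 412, 374 and 361 in Dhep hepatocytes and 1763, 1692 and 1795 in FF hepatocytes. In liver it read 541, 466 and 448 in Dhep and 424, 398 and 440.5 in FF. The 3 FF hepatocyte arrays stood far above the other 9, which lay within a narrow band. On the log2 scale the means were 8.46 ± 0.01 in Dhep hepatocytes, 11.10 ± 0.15 in FF hepatocytes, 8.97 ± 0.09 in Dhep liver and 8.61 ± 0.09 in FF liver. The hepatocyte level was 6.20-fold lower in Dhep (log2 difference -2.63, SE 0.069), the third most negative difference of the 22859 probes that passed the filter. FF hepatocytes lay 2.48 (log2) above FF liver, while Dhep hepatocytes minus Dhep liver was -0.51.

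Rhbdl2, the rhomboid protease on chromosome 4, had a similar profile at its probe ILMN_2891245. It read 706, 704 and 691 in Dhep hepatocytes and 2174, 2605 and 2205 in FF hepatocytes. It read 789.9, 702 and 754 in Dhep liver and 668, 582 and 763 in FF liver. The hepatocyte groups were far apart, while the raw liver readings overlapped and separated only after normalization. The log2 means were 9.31 ± 0.08 in Dhep hepatocytes, 11.50 ± 0.11 in FF hepatocytes, 9.58 ± 0.07 in Dhep liver and 9.23 ± 0.19 in FF liver. The hepatocyte level was 4.55-fold lower in Dhep (-2.19, SE 0.077).

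Fam126b, on chromosome 1, was measured by 3 probes that passed the filter, and all 3 were highest in FF hepatocytes after normalization. The probe ILMN_2864290 read 255, 243 and 249.9 in Dhep hepatocytes and 839, 889 and 776 in FF hepatocytes, and 193, 150.0 and 178 in Dhep liver and 248, 219 and 221 in FF liver. Its log2 means were 7.89 ± 0.07, 10.09 ± 0.03, 7.57 ± 0.07 and 7.82 ± 0.02 in that order of groups, and the hepatocyte level was 4.59-fold lower in Dhep (-2.20, SE 0.056). The other probes gave smaller differences. ILMN_2591592 was at 6.47 ± 0.08 in Dhep hepatocytes and 7.79 ± 0.05 in FF hepatocytes (-1.33). ILMN_2709051 was at 8.62 ± 0.05 in Dhep hepatocytes and 9.20 ± 0.07 in FF hepatocytes (-0.58), and its raw readings of 438, 434 and 410.3 in Dhep hepatocytes overlapped those of 426, 485 and 395 in FF hepatocytes. The hepatocyte difference of this last probe was -0.08 when arrays were scaled by their medians in place of quantile normalization. Another probe was annotated to Fam126b together with another gene and was left out.

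Erich5, on chromosome 15, showed the most negative hepatocyte difference of all probes that passed the filter. Its probe ILMN_2819380 read 734, 709 and 629 in Dhep hepatocytes and 4545, 4062 and 3944 in FF hepatocytes. It read 1017, 794 and 941 in Dhep liver and 682, 656 and 712 in FF liver. All 3 FF hepatocyte arrays exceeded every other array several times over, and the Dhep liver arrays all lay above the FF liver arrays. The log2 means were 9.29 ± 0.04 in Dhep hepatocytes, 12.27 ± 0.11 in FF hepatocytes, 9.87 ± 0.06 in Dhep liver and 9.26 ± 0.09 in FF liver. The hepatocyte level was 7.93-fold lower in Dhep (-2.99, SE 0.063), and FF hepatocytes stood 8.08-fold above FF liver.

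Zxda, the transcribed pseudogene on chromosome X, read 337, 293 and 246 in Dhep hepatocytes and 1279.7, 1419 and 1326 in FF hepatocytes at its probe ILMN_2811263. In liver it read 396, 322 and 391 in Dhep and 293, 292 and 275 in FF. Again the FF hepatocyte arrays stood alone. The log2 means were 8.09 ± 0.12 in Dhep hepatocytes, 10.72 ± 0.10 in FF hepatocytes, 8.60 ± 0.08 in Dhep liver and 8.11 ± 0.06 in FF liver, with a hepatocyte level 6.22-fold lower in Dhep (-2.64, SE 0.067). RefSeq also lists Zxda as a former name of the neighbouring gene Zxdb, a closely related gene. The Zxdb probe was at 6.29 in Dhep hepatocytes, 6.29 in FF hepatocytes, 6.29 in Dhep liver and 6.28 in FF liver (log2). These levels lie near the filter floor of 6.06, so its flat profile may only be background.

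Serpina4-ps1, the serpin pseudogene on chromosome 12, read 367, 390.0 and 370.1 in Dhep hepatocytes and 1221, 1243 and 972 in FF hepatocytes at its probe ILMN_2815450. In liver it read 191, 157 and 152 in Dhep and 245, 208 and 214 in FF. Both hepatocyte groups lay above both liver groups. The log2 means were 8.44 ± 0.11 in Dhep hepatocytes, 10.51 ± 0.07 in FF hepatocytes, 7.52 ± 0.07 in Dhep liver and 7.78 ± 0.05 in FF liver. The hepatocyte level was 4.20-fold lower in Dhep (-2.07, SE 0.062). Hepatocytes lay above liver by 0.92 in Dhep and by 2.73 in FF (log2). A pseudogene and the genes it copies can share probe sequence, so its signal may hold that of other serpins.

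The noncoding RNA 2900060B14Rik, on chromosome 1, read 675, 653 and 566 in Dhep hepatocytes and 2842, 2701 and 2299.5 in FF hepatocytes at its probe ILMN_1253544. It read 1161, 898 and 969 in Dhep liver and 2057, 1841 and 1787 in FF liver. The Dhep arrays were the lower ones in both preparations. The log2 means were 9.16 ± 0.06 in Dhep hepatocytes, 11.66 ± 0.08 in FF hepatocytes, 9.99 ± 0.04 in Dhep liver and 10.70 ± 0.03 in FF liver. The hepatocyte level was 5.65-fold lower in Dhep (-2.50, SE 0.057), and FF hepatocytes stood 0.96 above FF liver.

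**Figure D1:**
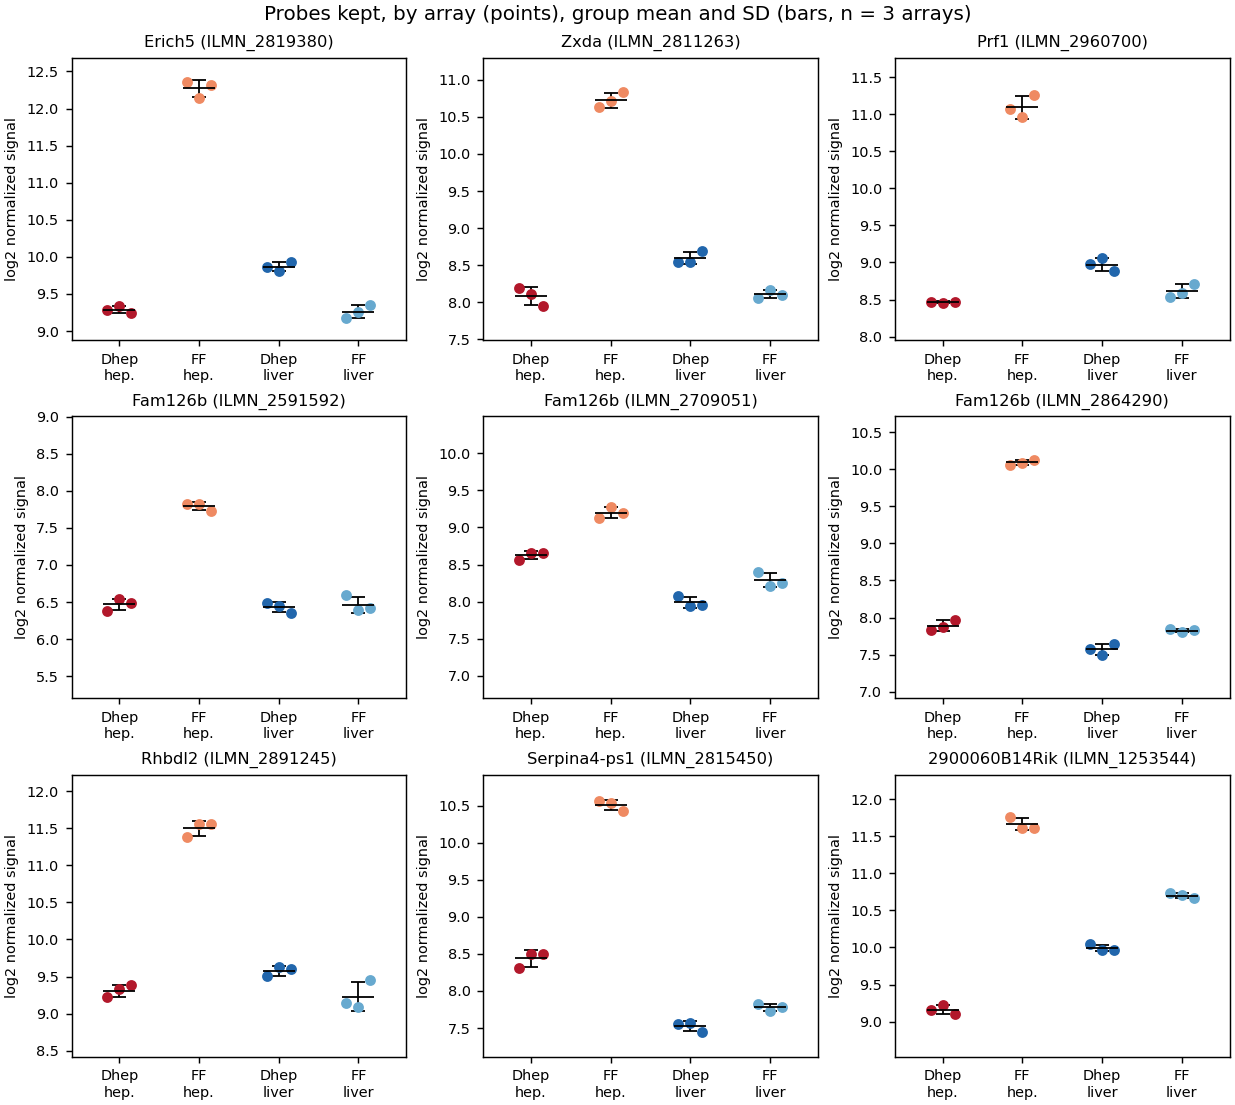
Log2 normalized signal of the 9 probes on each of the 12 arrays, 1 panel per probe, with groups along the horizontal axis and bars for the mean ± SD of 3 arrays. FF hepatocytes are the highest group in every panel, by 2.41 in Erich5 and by 0.58 in the Fam126b probe ILMN_2709051 over the next group.

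Ranked by the hepatocyte difference, the probes of the 7 genes with the highest signal in FF hepatocytes took ranks 1, 2, 3, 5, 7, 8 and 9. For Fam126b that probe is ILMN_2864290, while ILMN_2709051, which was brighter in the other 3 groups, took rank 1315. The probes between and just outside them were Nat8 at rank 4 (-2.53), an unnamed probe at rank 6 (-2.42), Cd163 at rank 10 (-2.05), Erdr1 at rank 11 (-2.04) and Ifngr2 at rank 12 (-2.03). Between the hepatocyte groups, 8 of the 9 probes were lower by the call rule (adjusted p under 0.05 and a log2 difference of at least 1), where 1.24% of all probes were (2.45% either way, 1.22% higher), and with median scaling the Fam126b probe ILMN_2591592 fell under the fold threshold (-0.99). Likewise 9 of 9 did not overlap between these groups, against 58.8% of all probes. FF hepatocytes were higher than FF liver by the same rule at 7 of 9, against 1.25% of all probes (1.44% either way, 0.192% lower). These counts repeat the choice of the genes. Dhep hepatocytes and Dhep liver gave 0 calls among the 9 in either direction, against 0.967% of all probes (0.494% higher, 0.472% lower). Serpina4-ps1 came past the fold threshold there with an offset of 16 (1.06) and with median scaling (1.10). The medians of the 9 differences were -2.20 between the hepatocyte groups, 2.27 for FF hepatocytes over FF liver and -0.27 for Dhep hepatocytes over Dhep liver, against 0.00, -0.03 and 0.01 over all probes.

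The liver comparison asks whether the genotype groups also differ in whole tissue. By the call rule, 0 of the 9 probes were called between Dhep and FF liver, where 0.595% of all probes were (0.503% higher, 0.0919% lower). By limma's Benjamini-Hochberg adjusted p under 0.05 with no fold threshold, 8 of 9 passed, 4 higher and 4 lower in Dhep. Of all probes 27.8% passed, 13.1% higher and 14.7% lower. By an unadjusted limma p under 0.05, 8 of 9 passed too, and the share of all probes at that threshold was not counted. Of the 9 probes, 8 did not overlap between the liver groups, against 40.4% of all probes. The median of the 9 was -0.04, against -0.02 over all probes.

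Erich5 was higher in Dhep than in FF liver by 0.61 (log2, SE 0.063, 1.52-fold, limma adjusted p = 8.26e-08), a size reached by 1.72% of all probes. Zxda was higher by 0.49 (1.40-fold, adjusted p = 6.3e-06), and Prf1 by 0.36 (1.28-fold, adjusted p = 0.000352; 0.21 with median scaling, adjusted p = 0.0272). Rhbdl2 was higher by 0.35 (1.27-fold, adjusted p = 0.00144), and no longer passed with median scaling (0.17, adjusted p = 0.107). These 4 genes thus lay higher in Dhep liver, while in hepatocytes they lay lower in Dhep. The noncoding RNA 2900060B14Rik was lower in Dhep liver by 1.63-fold (-0.70, SE 0.057, adjusted p = 1.05e-09), the direction it had in hepatocytes. Serpina4-ps1 was lower by 1.19-fold (-0.26, adjusted p = 0.003). Fam126b was lower at ILMN_2864290 (-0.25, adjusted p = 0.0013) and at ILMN_2709051 (-0.30, adjusted p = 0.00078), while ILMN_2591592 did not pass (-0.04, adjusted p = 0.727). In a tissue, fewer cells of a type and less RNA per cell cannot be told apart.

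**Figure D2:**
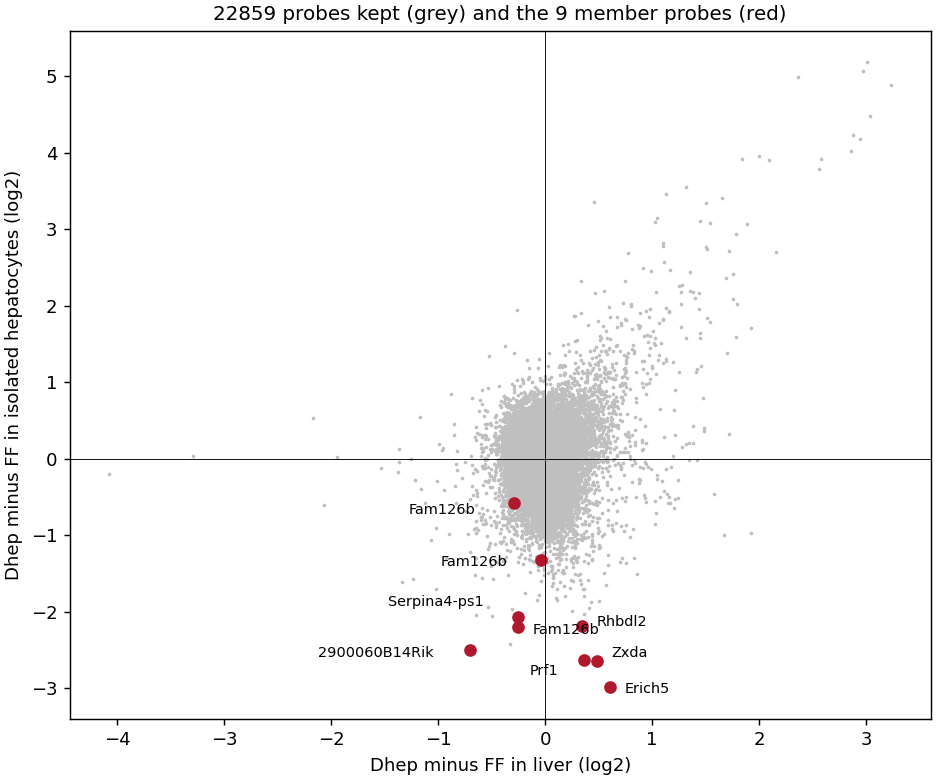
Genotype difference (Dhep minus FF, log2) in liver on one axis and in isolated hepatocytes on the other, for all 22859 probes in grey and the 9 member probes in red. The members lie at -0.58 to -2.99 in hepatocytes and at -0.70 to 0.61 in liver.

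Several of the genes were read by more than 1 probe, and these did not all give the same picture. Erich5, Prf1 and Rhbdl2 each had a second probe that stayed between 31.9 and 55.2 in raw intensity on all 12 arrays and did not pass the filter. For Erich5 the second probe, ILMN_2597343, read 48.0, 44.0 and 48.9 in Dhep hepatocytes and 46.3, 39.8 and 40.3 in FF hepatocytes. The second Prf1 probe, ILMN_1228333, read 47.1, 39.8 and 41.7 in Dhep hepatocytes and 38.6, 31.9 and 31.9 in FF hepatocytes. The second Rhbdl2 probe, ILMN_1246351, read 43.5, 38.9 and 38.1 in Dhep hepatocytes and 39.4, 40.4 and 35.0 in FF hepatocytes. None of these second probes was raised in FF hepatocytes, so the high signal of these 3 genes rests on 1 probe each. Over the 12 arrays the 3 Fam126b probes correlated with each other at 0.876, 0.909 and 0.989 (Pearson's r). Zxda, Serpina4-ps1 and 2900060B14Rik had 1 probe each, so no agreement could be examined.

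**Figure D3:**
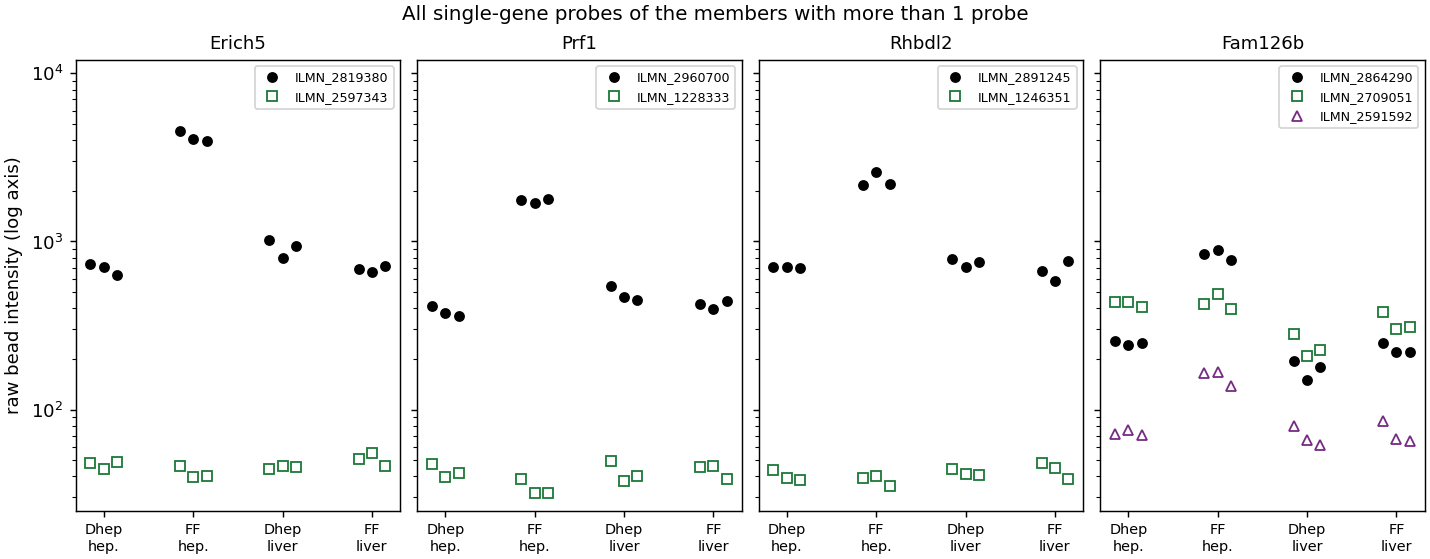
Raw intensity (log axis) on each array for all single-gene probes of Erich5, Prf1, Rhbdl2 and Fam126b, with the groups along the horizontal axis. The second probes of Erich5, Prf1 and Rhbdl2 stay at 31.9 to 55.2 in all groups, and of the 3 Fam126b probes ILMN_2709051 overlaps between the hepatocyte groups while the other two are highest in FF hepatocytes.

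Across the 12 arrays the genes correlated with one another, largely through the FF hepatocyte arrays they were chosen on. Erich5 and Zxda had r = 0.997, Erich5 and Prf1 0.995, and Prf1 and Rhbdl2 0.991, while Serpina4-ps1 and 2900060B14Rik had 0.648. On the 9 arrays without FF hepatocytes the genes divided, as described here after their values were seen. Erich5 and Zxda still had r = 0.962, Erich5 and Prf1 0.900, and Erich5 and Rhbdl2 0.846. Fam126b, at ILMN_2864290, ran with Serpina4-ps1 (0.792) and against Erich5 (-0.890), Zxda (-0.919) and Prf1 (-0.946). Erich5 and 2900060B14Rik had r = 0.006. Dhep hepatocytes lay below Dhep liver in Erich5, Zxda, Prf1 and Rhbdl2 (log2 differences of -0.58, -0.51, -0.51 and -0.27) and in 2900060B14Rik (-0.83), and above it in Fam126b (0.32 at ILMN_2864290 and 0.63 at ILMN_2709051) and Serpina4-ps1 (0.92). With median scaling the differences were -0.32 for Zxda, -0.32 for Prf1, -0.09 for Rhbdl2 and 0.49 for Fam126b at ILMN_2864290, and the raw Rhbdl2 readings of these groups overlapped. Of these 3 groups, 2900060B14Rik was highest in FF liver. The points share only 3 RNA samples, so these values describe them and carry no test.

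**Figure D4:**
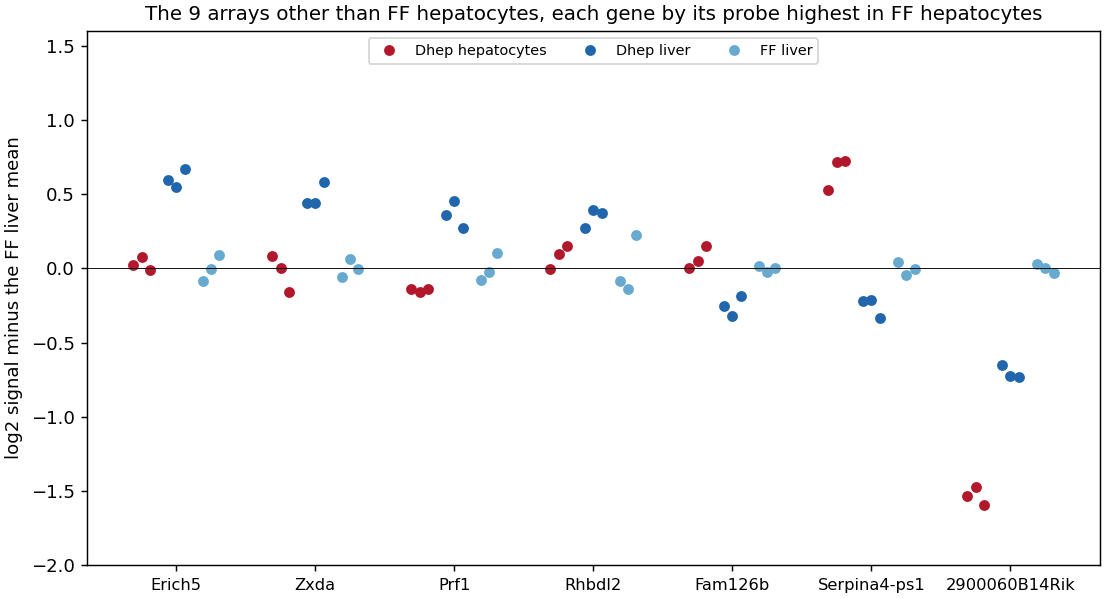
Log2 signal relative to the FF liver mean on the 9 arrays other than FF hepatocytes, for the probe of each of the 7 genes with the highest signal in FF hepatocytes (ILMN_2864290 for Fam126b). Erich5, Zxda, Prf1 and Rhbdl2 are highest in Dhep liver, Fam126b and Serpina4-ps1 are lowest there, and 2900060B14Rik is lowest in Dhep hepatocytes.

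The measured genes that work with perforin gave 0 calls in either genotype comparison. Of all probes, 2.45% were called between the hepatocyte groups and 0.595% between the liver groups. With shares this low, 0 calls in a short list says little, here and in the lists that follow. The share of all probes at an unadjusted p under 0.05 was not counted, so nothing is read from list counts at that threshold. A limma adjusted p under 0.05 alone was reached by 27.8% of all probes between the liver groups. Of 28 listed genes of the cytotoxic granule, 16 were measured, with 0 called between the hepatocyte groups and 0 between the liver groups (limma, with 7 and 6 at an unadjusted p under 0.05), and medians of 0.10 and 0.08. Another 10 were on the arrays below the floor, among them the granzymes Gzmb and Gzmk and the transcription factors Tbx21 and Eomes. The largest hepatocyte differences were in Stx11, a syntaxin of granule release (0.73, adjusted p = 1.63e-10), and Ctsc, the protease that activates granzymes (0.67, adjusted p = 6.82e-10), both higher in Dhep but under the fold threshold. Of T and natural killer cell markers, 8 were measured, with 0 called between the hepatocyte groups and 1 called higher in Dhep liver (limma, 4 and 6 at an unadjusted p under 0.05), and medians of 0.12 and 0.21. The called gene was the chemokine Ccl5 (1.49 in liver, adjusted p = 1.3e-14). Their summed signal was 654 to 662 in Dhep hepatocytes and 576 to 615 in FF hepatocytes, and 905 to 946 in Dhep liver and 608 to 642 in FF liver. Cd4, Cd8a and Ncr1 did not pass the filter, and Nkg7 was at 5.91 in FF hepatocytes, under the floor of 6.06. The part of these markers in the Prf1 values was not tested.

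Rhbdl2's relatives and known rhomboid substrates gave 13 measured of 14 listed. There were 0 calls between the hepatocyte groups and 0 between the liver groups, against 2.45% and 0.595% of all probes. By limma, 8 and 3 had an unadjusted p under 0.05, and the medians were -0.16 and -0.10. Thbd, which encodes thrombomodulin, a substrate of human RHBDL2, was lower in Dhep hepatocytes by less than the fold threshold (-0.78, adjusted p = 1.62e-10). Rhbdd2 differed at one probe (-0.60) and not at another (0.05). The list around phosphatidylinositol 4-kinase, whose complex holds the Fam126b paralogue Fam126a, had 11 measured of 17. Fam126b itself was not among these 11. The list had 0 and 0 calls against the same shares (limma, 9 and 6 at an unadjusted p under 0.05). Within it, Efr3a, which anchors the kinase complex to the membrane, was higher in Dhep hepatocytes by 0.69 (adjusted p = 1.95e-09), with its other probes between 0.03 and 0.74. Tmem150a, another partner of the complex, was lower (-0.60).

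The Serpina family had 15 measured of 25, with 1 called higher and 0 lower in each genotype comparison. Its medians were -0.04 between the hepatocyte groups and 0.03 between the liver groups. Of all probes, 1.22% were called higher in Dhep between the hepatocyte groups and 0.503% between the liver groups. The called gene was Serpina3f, a serpin of a cluster with near-identical copies, whose signal may be shared. It stood at 10.25 in Dhep hepatocytes and 7.49 in FF hepatocytes (2.76, SE 0.056, adjusted p = 1.01e-21), and at 8.77 in Dhep liver and 7.27 in FF liver (1.50, adjusted p = 6.7e-16), the opposite direction to Serpina4-ps1. Of 16 listed genes of the ZXD family and MHC class II transactivation, 15 were measured. Between the hepatocyte groups 7 were called higher and 0 lower (median 0.31), and between the liver groups 6 and 0 (median 0.10). The list was chosen with earlier results of these data known, so nothing about Zxda is read from these counts. Zxdb, near the filter floor, differed by 0.00 and 0.02. The members called were MHC class II genes, among them the invariant chain Cd74 (5.18 in hepatocytes, 3.01 in liver) and the class II chain H2-Ab1 (4.23 and 2.88). They lay higher in Dhep in both preparations, while Zxda lay lower in Dhep hepatocytes and higher in Dhep liver (0.49).

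Markers of Kupffer, sinusoidal endothelial and stellate cells differed between the hepatocyte groups. The T and natural killer, bile duct, B cell and red cell lists had 0 calls there, and the neutrophil list 1. Of all probes, 1.22% were called higher and 1.24% lower in Dhep hepatocytes. Kupffer cell markers summed to 17052 to 17651 in Dhep hepatocytes and 4848 to 4930 in FF hepatocytes. Of these, 7 of 10 were higher in Dhep and 1, Cd163, was lower (-2.05). In liver they summed to 10879 to 11281 in Dhep and 5255 to 5329 in FF. Sinusoidal endothelial markers summed to 4906 to 5095 in Dhep hepatocytes and 9362 to 9729 in FF hepatocytes, with 5 of 11 lower in Dhep. Stellate cell markers summed to 4917 to 5077 in Dhep hepatocytes and 10881 to 11246 in FF hepatocytes, with 6 of 11 lower in Dhep. In liver the endothelial markers summed to 8858 to 9217 in Dhep and 7679 to 7968 in FF, and the stellate markers to 11876 to 12214 in Dhep and 11567 to 11868 in FF. The 9 member probes lay higher in FF hepatocytes than in FF liver by 0.91 to 3.02 (log2), and the lowest of these, Fam126b ILMN_2709051, was 0.46 with median scaling. The part of these markers in the members' values was not tested.

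The genes whose probes followed a member most closely over the 12 arrays overlapped between members. These correlations run largely through the FF hepatocyte arrays that chose the members. The overlap is therefore not independent of that choice, and nothing is read from it. For Erich5 they were 6030458C11Rik (r = 0.995), Srr (0.995) and Ndufaf4 (0.994), for Zxda 6030458C11Rik (0.996), Ndufaf4 (0.995) and Srr (0.994), and for Prf1 6030458C11Rik (0.995), Gin1 (0.994) and Uba6 (0.993). Rhbdl2 was followed by Srr (0.993), Zdhhc9 (0.992) and Nmd3 (0.990). The probe of Srr, which encodes serine racemase, was lower in Dhep hepatocytes by a log2 difference of -1.94 and higher in Dhep liver by 0.41. The probe of Ndufaf4, an assembly factor of respiratory complex I, differed by -1.79 and 0.36. The probes of 6030458C11Rik, Srr, Ndufaf4, Gin1 and Uba6 were annotated without a curated RefSeq transcript. Whether other probes of these genes agree was not examined. Fam126b was followed by Slc6a12 (0.995), Prodh2 (0.995) and Mfsd3 (0.993), with hepatocyte differences of -0.66, -0.67 and -0.51. Serpina4-ps1 was followed by Rce1 (0.995), Sec61a1 (0.994) and Alg5 (0.994), and 2900060B14Rik by Emcn (0.989), H2ac18 (0.988) and Mgst3 (0.988). Among probes at least 1 log2 unit higher in FF hepatocytes than in each other group, those most like the members together were Uqcrq (0.997), Uba6 (0.997), Csnk2a1 (0.994), Gdpd3 (0.992), Adal (0.992), Enah (0.991), Siglech (0.990), Ogt (0.989), Ccn2 (0.988) and Zbtb2 (0.987). Their hepatocyte differences ran from -1.10 for Enah to -1.85 for Uba6 and Zbtb2. In this set the probes of Uqcrq, Uba6, Csnk2a1, Adal, Enah and Ogt were likewise annotated without a curated RefSeq transcript.

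The nearest measured genes on the chromosome, in RefSeq order, mostly did not follow the members. Rpl30 and Rida flank Erich5, with hepatocyte differences of -0.95 and 0.71. Sgpl1 and Pald1 flank Prf1 (0.17 and -0.20), Akirin1 and Mycbp flank Rhbdl2 (0.63 and 0.19), and Nifk and Tfcp2l1 flank 2900060B14Rik (0.33 and 0.13). Zxdb and Amer1 beside Zxda differed by 0.00 and -0.05. Ndufb3, next to Fam126b, differed by -0.74, and Orc2 on the other side by 0.02. The Zxdb, Amer1 and Orc2 probes lay near the filter floor of 6.06 in all groups, so their small differences may only reflect background. Serpina5, beside Serpina4-ps1, was also highest in FF hepatocytes, at 6.91, against 6.23 in Dhep hepatocytes, 6.20 in Dhep liver and 6.24 in FF liver (log2). Serpina12 on the other side differed by -0.04 between the hepatocyte groups and by -0.75 between the liver groups.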

How the data were processed

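RNA of 4 groups was measured on 12 arrays. The deposited raw table holds the authors' bead intensity per probe, linear and not normalized between arrays; BeadStudio is named per the submitters' processing notes, without a version. A second deposited table holds the authors' normalized intensity, by a method not stated in the labels; it was used as an alternative. Raw and normalized columns of an array correlated at 0.999 to 1.00. Arrays carry their groups per the labels.

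Deposited intensities were corrected with normexp (offset 50), since the deposited table has no detection p-value for neqc, then log2 transformed and quantile normalized (limma 3.58.1, R 4.3.3); Python 3.11.15 and matplotlib 3.10.9 made tables and figures. Of 45281 probes, 34885 had 1 symbol, 18 several and 10378 none. Probes above 6.06 (log2; the median of probe means, 66.7 linear) on all arrays of at least 1 group were kept: 22859 (50.5%). limma's lmFit and eBayes fitted 4 group means (8 residual degrees of freedom, 14.8 from the prior), and the fit was tested on simulated data. A call is a Benjamini-Hochberg adjusted p under 0.05 with a log2 difference of at least 1. The number of arrays limits the precision.

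The members, 5 related lists and 9 marker lists (132 genes measured of 182) were chosen with earlier results of these data known. Each listed gene is its kept probe of highest mean. Named genes were all member probes, up to 4 per list with the largest hepatocyte difference, the 3 most correlated genes per member, the 10 most like all members, and nearest neighbours. A κB pattern was searched first and the consensus was added after the promoter sequences had been read. Alternatives were other background corrections, scalings, filters and priors, the authors' table, a replicate block, a fit of the compared groups alone, calls without the fold threshold and leaving out each array. Lists of bile duct, B cell, neutrophil and red cell markers are given in the closing section.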

Additional observations from a re-analysis of the deposited data

Results flagged for a closer look

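After normalization, in 4 of the 7 genes every Dhep liver array lay above every FF liver array, while every Dhep hepatocyte array lay below every FF hepatocyte array. The genotype difference in hepatocytes minus that in liver was -3.59 (log2) for Erich5, -3.12 for Zxda, -2.99 for Prf1 and -2.53 for Rhbdl2. This difference between preparations was not tested, because the hepatocyte arrays chose the genes. Of all probes, 58.8% did not overlap between the hepatocyte groups and 40.4% between the liver groups. The share of all probes with opposite directions in both was not counted, so nothing is read from the count of 4. The raw Rhbdl2 readings overlapped between the liver groups, and its liver difference did not pass with median scaling (0.17, limma adjusted p = 0.107). Groups of 3 arrays were too small to examine for outlying arrays.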

How the results depend on the processing

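Of 198 liver differences of member probes under the alternatives, 195 kept direction and side of the threshold used for calls and 3 reversed, all at the Fam126b probe ILMN_2591592, whose main value of -0.04 was not called: 0.0143 with cyclic loess, 0.0258 without FF liver replicate 1 and 0.00129 without Dhep liver replicate 3 (range over left-out arrays -0.0754 to 0.0258, adjusted p 0.482 to 0.992); the cause was not tested. Liver differences ranged from 0.42 to 0.66 for Erich5, 0.35 to 0.58 for Zxda, 0.21 to 0.43 for Prf1, 0.17 to 0.46 for Rhbdl2, -0.37 to -0.18 for Serpina4-ps1 and -0.89 to -0.65 for 2900060B14Rik. Of 594 differences in the other comparisons none reversed and 57 moved by more than 1 SD between arrays. With median scaling the hepatocyte difference of every member probe moved in this way and was smaller. It was then -2.63 for Erich5, -2.19 for Zxda, -2.20 for Prf1 and -1.76 for Rhbdl2. It was -1.72 for Fam126b at ILMN_2864290, -1.61 for Serpina4-ps1 and -2.08 for 2900060B14Rik. Median scaling shifted the median of all probes by 0.166 between the hepatocyte groups and by -0.124 between FF hepatocytes and FF liver, and gave 0.53 in place of 0.96 for 2900060B14Rik in FF hepatocytes over FF liver. Probes called between Dhep and FF liver numbered 115 higher and 21 lower. They were 82 and 30 with median scaling, 182 higher with an offset of 16, and 2990 and 3361 with no fold threshold, where 8 member probes passed in place of 0. Leaving out 1 array gave 113 to 117 higher, 20 to 22 lower and 0 member probes. Same-numbered arrays of different groups had deviations that correlated at -0.05 to 0.07 over 18 pairs, and 7 of 12 arrays correlated best with their own number, so the numbers were not taken to pair arrays; with the replicate block the counts were 115, 21 and 0. Signal near background limits the second probes of Erich5, Prf1 and Rhbdl2, for which no difference could be measured.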

Other observations

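Of all 22859 probes that passed the filter, members included, 116 were higher in FF hepatocytes than in each other group by at least 1 on the log2 scale. Of these 116, 7 were member probes, a count that repeats the choice of the genes and from which nothing is read. The same measure gave 64 probes for Dhep hepatocytes, 6 for Dhep liver and 3 for FF liver, and probes lower by as much numbered 35, 8, 9 and 7 for Dhep hepatocytes, FF hepatocytes, Dhep liver and FF liver. Of the 116 probes, 45 had no gene symbol (38.8%), against 15.9% of all probes that passed the filter. A curated RefSeq accession was attached to 35 of the 116 (30.2%), against 76.9% of all such probes, and to 8 of the 9 member probes.

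Of all probes, 2.45% were called between the hepatocyte groups (1.22% higher in Dhep) and 0.595% between the liver groups (0.503% higher). Shares at an unadjusted p under 0.05 were not counted. Among the remaining markers, bile duct markers summed to 373 to 383 in Dhep hepatocytes and 380 to 421 in FF hepatocytes, with 0 of 4 called between them (2 at an unadjusted limma p under 0.05). Of 5 neutrophil markers, 1 was called higher in Dhep hepatocytes and in Dhep liver, S100a8 (1.31 and 1.13), with list medians of -0.02 and 0.00. S100a9 was higher by less than the fold threshold (0.49 and 0.71), while Elane was at -0.03 and 0.00 and Camp at -0.08 and -0.12. Of 4 red cell markers, 0 were called between the hepatocyte groups (2 at an unadjusted limma p under 0.05), and 1, Hba-a1, was called higher in Dhep liver (1.67), with a list median of -0.03. Hba-a1 was at -0.99 between the hepatocyte groups, and Alas2 at -0.34 between the liver groups. A single B cell marker passed the filter and was not called.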
